A study of Mus musculus with 12 samples.

Results

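The addition of DTPA, a chelator used here to take zinc away from maturing red cell precursors, was compared with untreated culture across the transcriptome. The comparison rests on 6 of the 12 libraries in the series, 3 with DTPA and 3 controls, chosen by their labels alone, and on 11920 of the 55487 gene rows, those with at least 1 TPM in at least 3 of the 12 libraries. TPM is a transcript abundance corrected for gene length and scaled to the same total in every library. G1E-ER4 cells, used throughout, descend from mouse erythroid progenitors in which Gata1 was disrupted, and express instead a GATA1 protein whose activity depends on a linked estrogen receptor domain. They were grown with erythropoietin and Kit ligand. All cultures, controls included, received 100 nM β-estradiol, which starts maturation, and were harvested 24 h later. Control cells received nothing else, DTPA cells 50 µM DTPA from the start of differentiation, and the other groups 50 µM DFO, an iron chelator, or 0.2 mM SA, an agent used to inhibit the heme enzyme ALAD. For this last group the treatment protocol names DFO and the titles name SA, and the titles were followed. The cells are 1 line, and DTPA binds other divalent metals as well as zinc. No library with zinc added back was analysed here, so loss of zinc and other actions of DTPA cannot be told apart. Replicates are named as biological in the titles. The p-values weigh each group difference against the spread between replicates, estimated from all 4 groups together.

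Zinc is held at a low free level in cells by metallothioneins, which bind it, by ZIP transporters, which bring it into the cytosol, and by ZnT transporters, which move it out. The factor MTF1 senses free zinc through its own zinc fingers and switches on genes whose promoters carry metal response elements, the metallothionein genes Mt1 and Mt2 and the exporter gene Slc30a1 among them. Maturing erythroid cells have a high demand for zinc, since GATA1 is a zinc finger protein and ALAD, an early enzyme of heme synthesis, is a zinc enzyme. During this maturation cells stop dividing after a few rounds, fill with hemoglobin, assemble a spectrin membrane skeleton and silence the genes of other blood lineages.

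Depth was even. The smallest TPM steps of each library gave totals of 19864703 to 24339697 gene-assigned reads, so that a single read on a gene with a kilobase of exon added 0.124 to 0.160 TPM. On the first principal component, which held 61.4% of the variance of the tested genes, the 3 DTPA libraries lay between 53.6 and 55.0 and the other 9 between -19.3 and -16.0. Of 14 erythroid identity markers, 12 passed the filter in these cells, while 6 of 18 megakaryocyte markers, 3 of 22 mast and myeloid markers and 1 of 17 lymphoid markers did. Mpo, Lyz2 and Itgam of the myeloid list, Cd3d and Il7r of the lymphoid list and Ppbp and Gp6 of the platelet list were listed at 0 in all 12 libraries. Aqp1 of the erythroid list was also at 0 in all of them, so a 0 alone does not show that a lineage was absent.

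The metallothionein genes, the best known targets of MTF1, fell steeply, and Mt2 fell more than any other tested gene. Mt2 stood at 2429, 2594 and 2535 TPM in the 3 control libraries and at 8.36, 10.5 and 10.6 TPM with DTPA. Between 35 and 50 reads per DTPA library lay behind these last values, against 10358 to 11615 in control. Mt1, its neighbour on chromosome 8, stood at 1790.0, 1902 and 1923 TPM in control and at 126, 122 and 119 TPM with DTPA. Both genes thus fell in every library, but by unequal amounts: 257-fold for Mt2 (log2 fold change -7.87, SE 0.0796, adjusted p = 2.13e-14) and 15.3-fold for Mt1 (log2 fold change -3.93, SE 0.0286, adjusted p = 2.22e-15). In the DFO and SA groups Mt2 averaged 2583 ± 235 and 2556 ± 68.2 TPM (SD, n = 3 each), and DTPA lay far below both (log2 differences of -7.90 and -7.89).

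The promoters of Mt2, Mt1 and Slc30a1 are shown because they carry the element through which MTF1 reads zinc. Each stretch runs 5′ to 3′ from 250 bases before the start site through the first 30 transcribed bases, from RefSeq on GRCm38.p6, with matches to the core of the metal response element (TGCACNC or TGCGCNC, on either strand) in capitals. Mt2 is read from chr8:94172368-94172647, Mt1 from chr8:94178839-94179118 and Slc30a1 from chr1:191906531-191906810, all on the plus strand.
Mt2: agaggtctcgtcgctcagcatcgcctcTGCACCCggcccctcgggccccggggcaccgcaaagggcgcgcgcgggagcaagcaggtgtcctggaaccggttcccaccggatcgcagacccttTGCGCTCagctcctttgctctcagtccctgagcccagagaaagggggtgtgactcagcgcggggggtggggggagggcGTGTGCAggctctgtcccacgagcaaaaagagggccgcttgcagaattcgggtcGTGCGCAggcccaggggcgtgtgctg
Mt1: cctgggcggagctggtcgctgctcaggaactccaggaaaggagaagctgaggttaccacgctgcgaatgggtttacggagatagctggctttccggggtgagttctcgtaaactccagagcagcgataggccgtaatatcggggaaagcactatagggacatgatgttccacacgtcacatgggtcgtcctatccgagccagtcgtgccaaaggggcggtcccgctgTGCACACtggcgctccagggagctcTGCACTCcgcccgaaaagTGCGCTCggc
Slc30a1: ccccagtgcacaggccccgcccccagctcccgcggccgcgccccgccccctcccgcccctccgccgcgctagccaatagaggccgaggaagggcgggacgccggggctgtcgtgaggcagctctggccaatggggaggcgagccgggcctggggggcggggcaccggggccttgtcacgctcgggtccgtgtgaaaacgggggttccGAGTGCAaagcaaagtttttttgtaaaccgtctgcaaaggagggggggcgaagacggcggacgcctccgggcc
Within these windows Mt2 held 4 matches and Mt1 held 3. Some lay past the RefSeq start site, beginning 2 and 20 bases from it in Mt1 and 4 bases from it in Mt2. Sequence outside the windows was not searched, so the counts hold for the windows and not for whole promoters. Slc30a1 held 2 in the 300 bases searched, 1 of them past the stretch shown. The core is short, and 40.7% of the 7841 tested genes with a window held at least 1 match, so a single match marks nothing by itself. The Slc39a10 windows, 2 in number, held none.

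Genes known to answer zinc did not move in one direction. Slc39a10, which encodes the plasma membrane importer ZIP10, was low in control (1.49, 1.62 and 1.64 TPM) and reached 18.9, 17.9 and 19.2 TPM with DTPA (log2 fold change 2.93, SE 0.110, adjusted p = 5.01e-10). The gain rested on 819 to 942 reads per DTPA library against 66 to 75 in control. Slc30a1, which encodes the exporter ZnT1, was also higher, at 74.7, 76.5 and 69.8 TPM against 41.5, 38.3 and 37.1 TPM (log2 fold change 0.90, SE 0.0566, adjusted p = 4.76e-08). Slc30a1 therefore moved opposite to the metallothioneins although all 3 promoters hold metal response element cores. Mtf1 itself fell modestly, from 23.7 ± 0.681 to 16.3 ± 0.535 TPM (adjusted p = 2.94e-07). Alad fell from 669.6, 653 and 681 TPM to 168, 161 and 159 TPM (log2 fold change -2.03, SE 0.0256, adjusted p = 9.41e-14), which is 4.11-fold. None of these 6 genes showed overlap between its DTPA and control libraries, which also held for 69.5% of all tested genes.

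**Figure D1:**
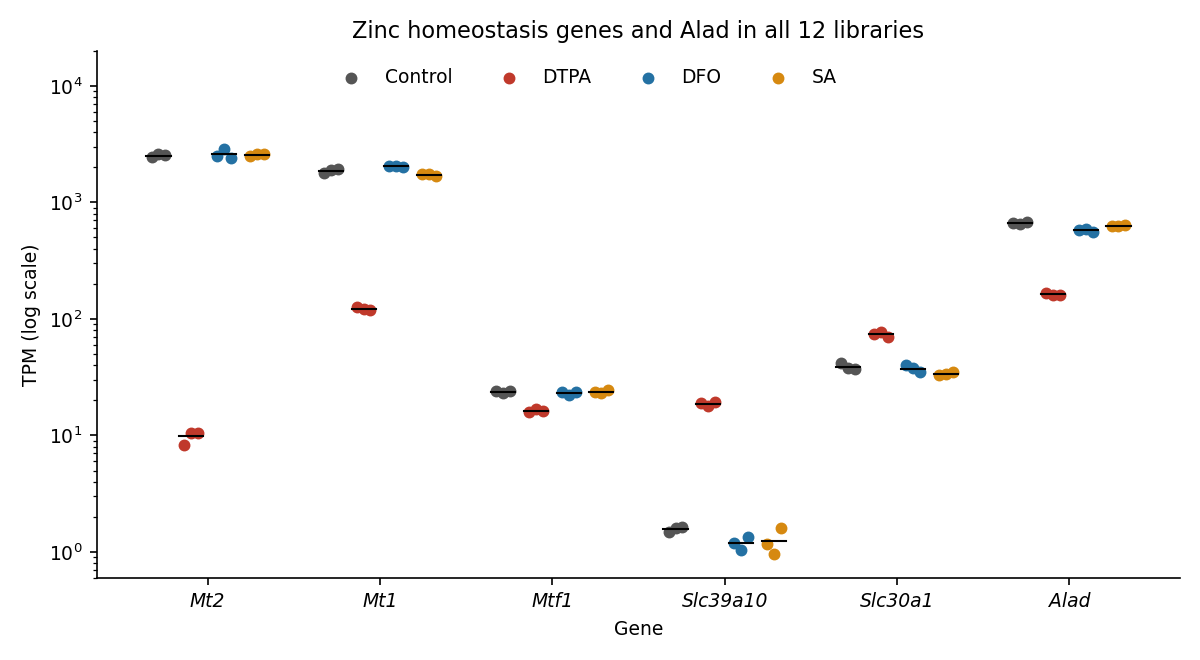
TPM on a log axis for 6 genes of zinc handling and heme synthesis in all 12 libraries, coloured by group, with a bar at each group mean. The DTPA points lie apart from the other 9 libraries for every gene shown, lowest for Mt2 (8.36 to 10.6 TPM) and above them for Slc39a10 and Slc30a1.

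No other tested zinc transporter was called at 2-fold or more as deposited. Of 9 tested importers, Slc39a10 included, 2 rose and 2 fell as deposited, against 23.5% and 42.1% of all tested genes. After the median-of-ratios scaling described below, 5 rose and 2 fell, against 32.2% and 32.4%. Among the exporters, Slc30a9, a mitochondrial zinc transporter, fell from 65.1 ± 0.414 to 39.3 ± 1.38 TPM (adjusted p = 2.36e-09) and Slc30a5 and Slc30a6, which load zinc into the secretory pathway, fell with log2 fold changes of -0.45 and -0.48. Slc30a7, of the same compartment, rose by 0.36 on that scale. The abundant importer Slc39a8 fell from 294 ± 10.3 to 239 ± 2.90 TPM and Slc39a3 from 5.27 ± 0.308 to 3.32 ± 0.245 TPM, while Slc39a1 rose from 34.8 ± 3.29 to 43.5 ± 1.64 TPM. Slc39a8 thus kept the highest TPM of the importer list in both groups, above Slc39a10 at its DTPA level.

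The response reached most of the tested genes. Of the tested genes 7811 (65.5%) passed an adjusted p of 0.05, 2796 of them higher (23.5%) and 5015 lower (42.1%) with DTPA, and in 8290 genes (69.5%) the 3 DTPA libraries lay wholly above or wholly below the 3 control libraries. Changes of at least 2-fold on the log2 scale were fewer, 403 higher (3.38%) and 734 lower (6.16%). The split between directions depends on scaling, because TPM forces a fixed total on each library. The median log2 fold change of all tested genes was -0.113 as deposited and 0.002 after median-of-ratios scaling, under which 3842 genes were higher and 3859 lower. Changes near 0.1 on the log2 scale therefore carry no firm direction, and counts under this scaling are given below where they alter the balance of a list. The background for every list count below is 23.5% higher and 42.1% lower, or 32.2% and 32.4% after this scaling.

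**Figure D2:**
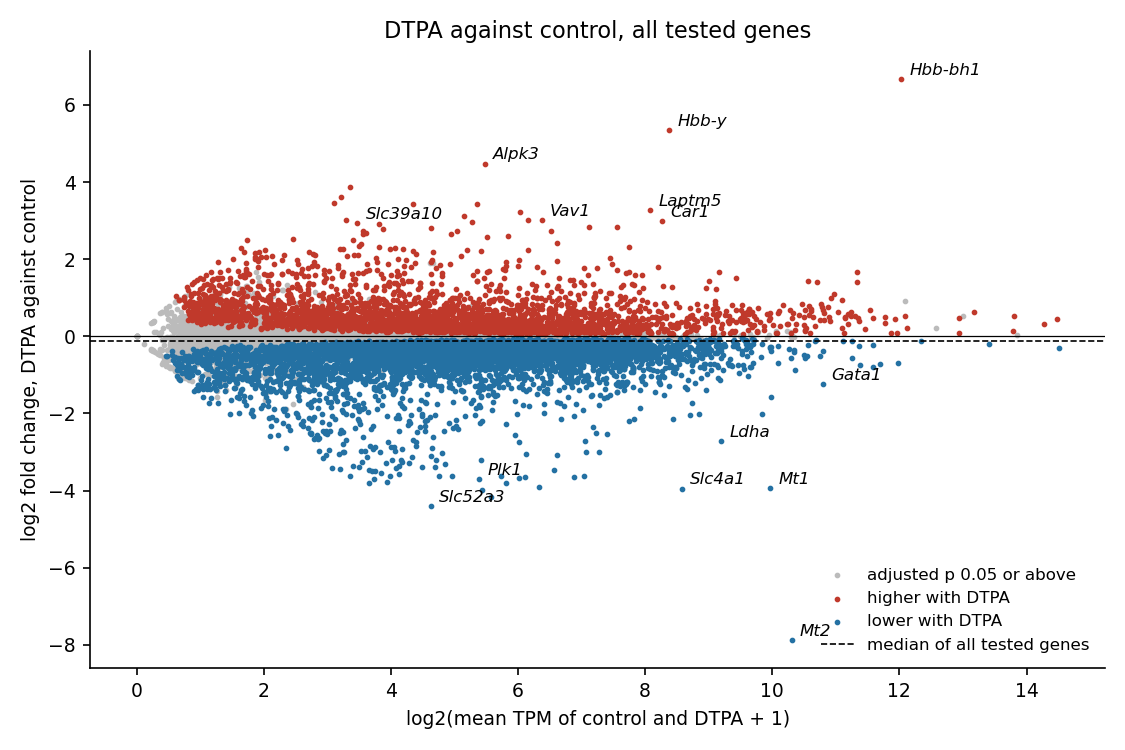
Log2 fold change of DTPA against control over the log2 of the mean TPM for all 11920 tested genes, red where higher, blue where lower and grey where the adjusted p was 0.05 or above. The dashed line is the median of all genes (-0.113), and the extremes are Hbb-bh1 at 6.68 and Mt2 at -7.87.

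The 20 largest rises, led by the embryonic globins Hbb-bh1 and Hbb-y, included muscle kinases, signalling adaptors of leukocytes and secreted proteins. Alpk3, a kinase known from heart muscle, went from 2.46, 3.28 and 2.80 TPM to 82.6, 86.8 and 84.1 TPM (log2 fold change 4.48, adjusted p = 4.50e-13). Platr32, a noncoding gene that lies within an Alpk3 intron on the same strand, rose with it from 0.474 ± 0.558 to 14.7 ± 2.13 TPM, and reads of the pair may not be fully separable. Mylk3, the cardiac myosin light chain kinase, rose from 14.2, 16.6 and 13.7 TPM to 128, 126 and 125 TPM. These kinase genes were almost silent or low in control and were tightly grouped among the DTPA libraries.

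Secreted and granule proteins followed. Cpz, a carboxypeptidase that binds Wnt proteins, rose from 5.97 ± 0.182 to 73.8 ± 4.44 TPM, and Srgn, the core protein of the proteoglycan serglycin found in blood cell granules, from a mean of 44.9 to one of 328 TPM. Matn1, a cartilage matrix protein gene whose start lies downstream of Laptm5 on chromosome 4, rose from 2.70 ± 0.309 to 24.6 ± 2.31 TPM. Laptm5 itself, a lysosomal membrane protein of hematopoietic cells, rose from 47.5, 51.0 and 51.0 TPM to 489, 507 and 474 TPM. Gip, an incretin hormone gene, rose from 2.62 ± 1.41 to 36.2 ± 1.14 TPM and Nxpe2 from 33.3 ± 1.51 to 243 ± 5.95 TPM. Mllt3, a reader of acylated histones known to maintain blood stem cells, stood at 23.3 ± 0.313 TPM in control and 159 ± 3.24 TPM with DTPA (adjusted p = 3.43e-14). Fyb, an adaptor of T cells and platelets, rose from 7.72 ± 0.419 to 56.5 ± 4.04 TPM and had the smallest fitted log2 fold change of the 20, at 2.72.

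The 20 largest falls, taken in the same way, were mostly genes of cell division apart from Mt2 and Mt1, with a few of the red cell surface and of metabolism. Slc52a3, a riboflavin transporter, fell from 37.5, 50.5 and 50.6 TPM to 0.914, 1.21 and 1.53 TPM (log2 fold change -4.41, adjusted p = 3.49e-11), the deepest fall of the 20 after Mt2. Slc4a1, the band 3 anion exchanger of the red cell membrane, fell from 747, 681 and 725 TPM to 49.3, 43.4 and 43.8 TPM. Rhd, the gene of a Rhesus blood group protein, fell from 23.7 ± 2.06 to 0.947 ± 0.626 TPM, a value resting on 4 to 20 reads per DTPA library. Ndufa4l2, a mitochondrial protein gene known as a hypoxia-inducible one, fell from 18.0 ± 3.75 to 0.521 ± 0.223 TPM. The Ndufa4l2 controls were uneven, at 15.5, 22.3 and 16.2 TPM, yet stayed clear of the DTPA libraries.

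Every one of these 40 genes also differed between DTPA and DFO and between DTPA and SA in the same direction. The smallest of those log2 differences was 2.27 against DFO and 2.17 against SA among the rises, and 3.12 and 2.11 in size among the falls. Over all tested genes 7858 (65.9%) were called between DTPA and DFO and 7994 (67.1%) between DTPA and SA, and these contrasts use the same DTPA libraries as the one with control. Slc4a1 was lower than control in the other groups too, at 461 ± 12.5 TPM with DFO and 520.5 ± 1.14 TPM with SA, and DTPA still lay below both (log2 differences of -3.31 and -3.49).

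**Figure D3:**
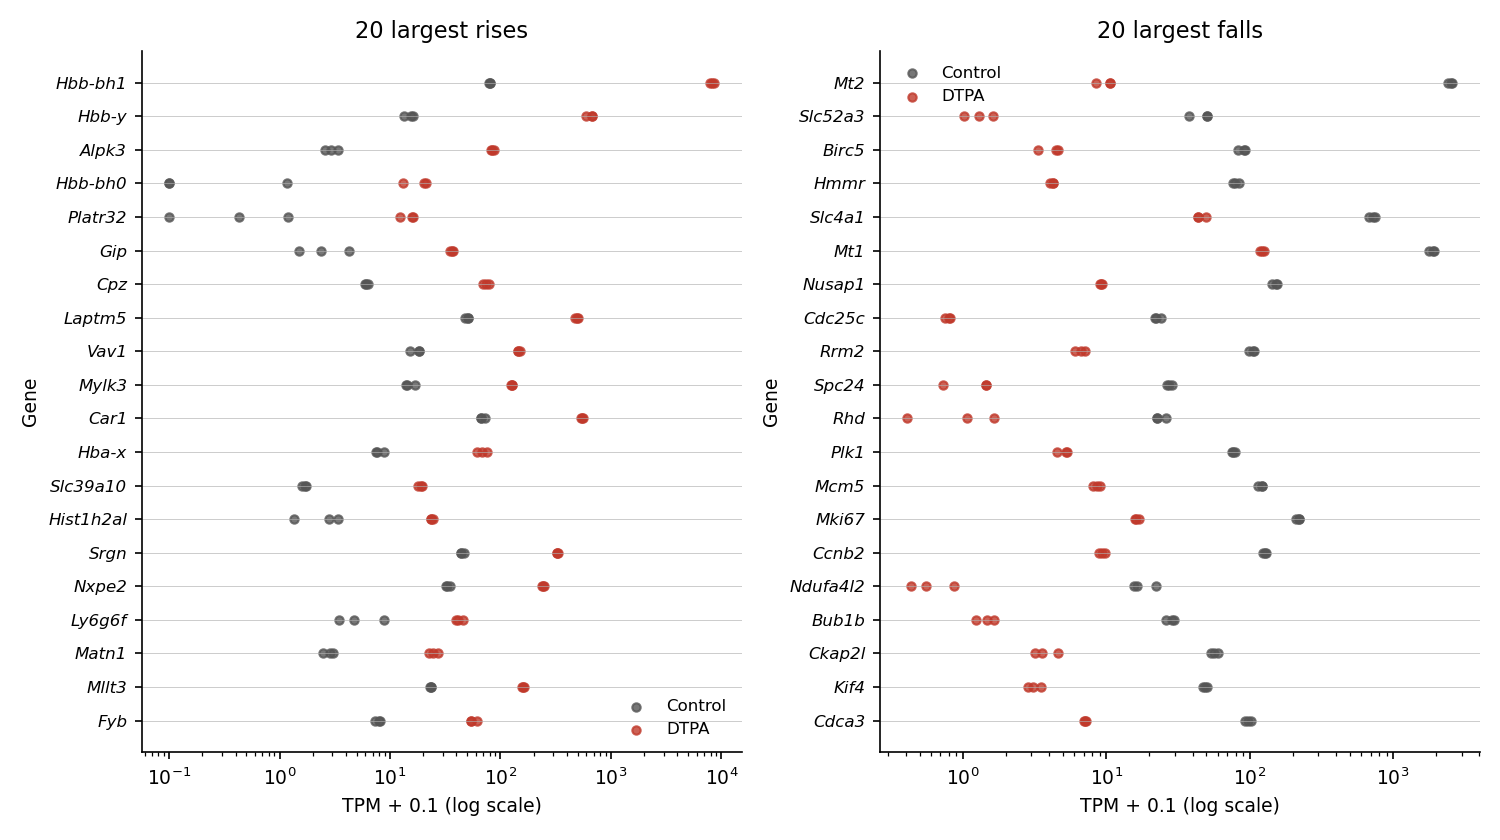
TPM plus 0.1 on a log axis for the 20 largest rises (left) and 20 largest falls (right), 1 point per library, grey for control and red for DTPA. The groups do not overlap for any gene, which the choice of these genes required.

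Genes that carry cells through mitosis fell. In bulk libraries fewer cells in division and less RNA per dividing cell cannot be told apart. All 33 tested members of a list of spindle, kinetochore and cytokinesis genes fell, 32 of them at least 2-fold, against backgrounds of 42.1% and 6.16%, and their median log2 fold change was -3.08 against -0.113 for all tested genes. Plk1, the kinase that drives mitotic entry, went from 78.7, 75.6 and 76.8 TPM to 4.47, 5.17 and 5.26 TPM (log2 fold change -3.71, SE 0.0576, adjusted p = 4.25e-13). Ccnb2, a cyclin partner of Cdk1, went from 128, 124 and 130.2 TPM to 9.27, 8.80 and 9.67 TPM. Control and DTPA libraries were far apart for both. Log2 fold changes were -3.78 and -3.63 for the kinetochore genes Spc24 and Bub1b, -3.58 for the motor gene Kif11 and -3.54 for the kinase gene Aurkb. Incenp, the scaffold that carries Aurora B, fell least, from 123 to 65.8 TPM, and was the 1 member short of 2-fold. Among the 20 largest falls stood further proliferation genes outside this list, among them Birc5, which encodes survivin, from 88.9 ± 5.06 to 4.04 ± 0.702 TPM, and Mki67, the Ki-67 antigen, from 217 ± 6.86 to 16.3 ± 0.585 TPM.

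The replication machinery fell over a wider range. All 32 tested genes of origin licensing and the replication fork fell, 23 of them at least 2-fold, with a median of -1.49. Mcm5, a subunit of the replicative helicase, led with 122, 115 and 121 TPM in control and 8.94, 8.48 and 8.01 TPM with DTPA (log2 fold change -3.67, adjusted p = 7.39e-14). The helicase subunits Mcm6 and Mcm3 followed at -3.02 and -2.75, Lig1, the replicative DNA ligase, at -2.55, and Cdc45 and the licensing factor Cdc6 at -2.42 and -2.25. Rrm2, the regulated subunit of ribonucleotide reductase, fell from 104 ± 4.58 to 6.51 ± 0.513 TPM and Rrm1 from 75.5 to 19.3 TPM. In the list of nucleotide synthesis enzymes 21 of 23 tested members fell, among them Tyms, Paics, Tk1 and Dut with log2 fold changes of -1.45, -1.37, -1.36 and -1.25. Prps2 rose by 0.28 on that scale, and by 0.23 and 0.24, short of the threshold, without control replicate 2 or DTPA replicate 2.

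The windows of Ccnb2, Cdk1 and Mcm5 are shown as examples of promoter elements frequent in these lists. The shares given below come from the sequences and the lists alone, and do not test an effect of DTPA. Capitals mark the CCAAT box (CCAAT) and the cell cycle homology region (TTTGAA or TTCGAA), the site of the DREAM and B-MYB complexes, in Ccnb2 and Cdk1, and in Mcm5 an E2F core (TTTCCCGC, TTTGGCGC, TTTCGCGC or TTTGCCGC), all on either strand. Ccnb2 is read from chr9:70421525-70421804 and Cdk1 from chr10:69352883-69353162, both on the minus strand, and Mcm5 from chr8:75109259-75109538 on the plus strand, with the same build and window as above.
Ccnb2: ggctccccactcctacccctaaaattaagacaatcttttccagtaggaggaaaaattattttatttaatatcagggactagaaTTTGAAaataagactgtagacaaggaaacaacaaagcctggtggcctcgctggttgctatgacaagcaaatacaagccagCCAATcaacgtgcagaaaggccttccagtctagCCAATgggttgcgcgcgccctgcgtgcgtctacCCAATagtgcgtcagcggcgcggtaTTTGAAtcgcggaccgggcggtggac
Cdk1: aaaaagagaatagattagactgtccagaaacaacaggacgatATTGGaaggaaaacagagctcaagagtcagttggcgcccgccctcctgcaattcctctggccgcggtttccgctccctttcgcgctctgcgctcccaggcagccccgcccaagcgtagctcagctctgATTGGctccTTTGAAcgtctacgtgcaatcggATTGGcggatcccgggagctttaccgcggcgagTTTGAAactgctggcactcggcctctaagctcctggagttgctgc
Mcm5: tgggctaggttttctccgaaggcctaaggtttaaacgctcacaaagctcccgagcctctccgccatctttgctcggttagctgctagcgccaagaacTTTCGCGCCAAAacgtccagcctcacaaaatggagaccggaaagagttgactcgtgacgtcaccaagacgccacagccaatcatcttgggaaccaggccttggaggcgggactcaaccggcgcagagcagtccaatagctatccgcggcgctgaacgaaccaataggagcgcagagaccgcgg
Ccnb2 and Cdk1 each held 5 matches of these 2 kinds, and Mcm5 held 2 E2F cores that overlap on opposite strands, read here as 1 run of capitals. Of 27 spindle list genes with a window, 22 (81.5%) held a cell cycle homology region and 21 (77.8%) a CCAAT box, against 16.4% and 44.7% of the tested genes with a window and 21.7% and 41.1% of all 27025 genes with one. Of 26 licensing genes with a window, 12 (46.2%) held an E2F core, against 5.27% and 2.60%. The CCAAT box was also frequent in other lists, in 14 of 16 cholesterol genes with a window (87.5%) and 17 of 26 licensing genes (65.4%). It was rarer in leukocyte signalling genes, at 2 of 13 (15.4%), and cytosolic ribosomal protein genes, at 19 of 61 (31.1%). The matches describe the windows, and binding there was not measured.

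Regulators of the division cycle moved unevenly. E2f8 and E2f2, members of the E2F family that peak in dividing cells, fell from 18.3 ± 1.83 to 0.879 ± 0.144 TPM and from 35.8 ± 1.85 to 6.20 ± 0.203 TPM. E2f3 was the 1 member of 9 to rise, from 10.7, 9.84 and 10.2 TPM to 20.3, 21.4 and 19.8 TPM (adjusted p = 2.63e-07). Of 16 tested G1 cyclins, kinases and inhibitors, 10 fell and 5 rose, against 42.1% and 23.5% of all tested genes. Cyclin E1 (Ccne1) fell from 256 to 89.3 TPM and the pocket protein gene Rbl1 from 14.8 to 2.87 TPM, while Rb1 rose from 138 to 183 TPM. Among the inhibitors of cyclin kinases, Cdkn2c fell from 365 to 179 TPM, Cdkn1b from 281 to 246 TPM, and Cdkn1a rose from 196 to 247 TPM. Inhibitor transcripts therefore did not rise together. Myc, whose silencing by GATA1 normally comes with exit from the cycle, was at 8.99 TPM in control and 18.4 TPM with DTPA.

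Chromosome structure and repair genes were also mostly lower. Of 17 tested condensin, cohesin and lamina genes 16 fell and Wapl, which releases cohesin, rose. Within this list the condensin subunits Ncapg, Ncapd2 and Smc2 had log2 fold changes of -2.62, -2.28 and -2.24, and the cohesin subunits Rad21, Smc1a and Smc3 of -0.59, -0.62 and -0.49. Lamin B1 (Lmnb1) went from 34.2 ± 0.262 to 4.48 ± 0.386 TPM. Of 18 recombination and Fanconi genes 16 fell and Fanca rose, from 45.8 to 60.3 TPM. Brca1 fell from 28.5 to 4.33 TPM. Among 15 tested chromatin maintenance enzymes 13 fell and Ezh1, the Polycomb methyltransferase of resting cells, rose from 42.0 to 49.1 TPM, against a fall of Ezh2, that of dividing cells, from 69.3 to 35.2 TPM. Uhrf1, which guides DNA methylation behind the fork, fell from 28.3 to 2.20 TPM and its partner Dnmt1 from 63.6 to 36.7 TPM.

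Clustered histone genes mostly did not pass. They are tied to S phase and mostly make messages without a poly(A) tail, so the libraries, which were made from polyadenylated RNA, catch them poorly. Of 31 tested members under their current symbols 19 did not pass, 10 rose and 2 fell, with a median of -0.013, against 23.5% higher and 42.1% lower over all tested genes. H1f2 rose from 75.7, 67.5 and 67.9 TPM to 352, 363 and 353 TPM (log2 fold change 2.33, adjusted p = 3.51e-12), and H3c4 and H2bc8 rose by 1.65 and 1.62 on that scale. H3c1 and H3c3 fell, with log2 fold changes of -1.30 and -1.01. Whether tails or transcription changed was not tested.

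**Figure D4:**
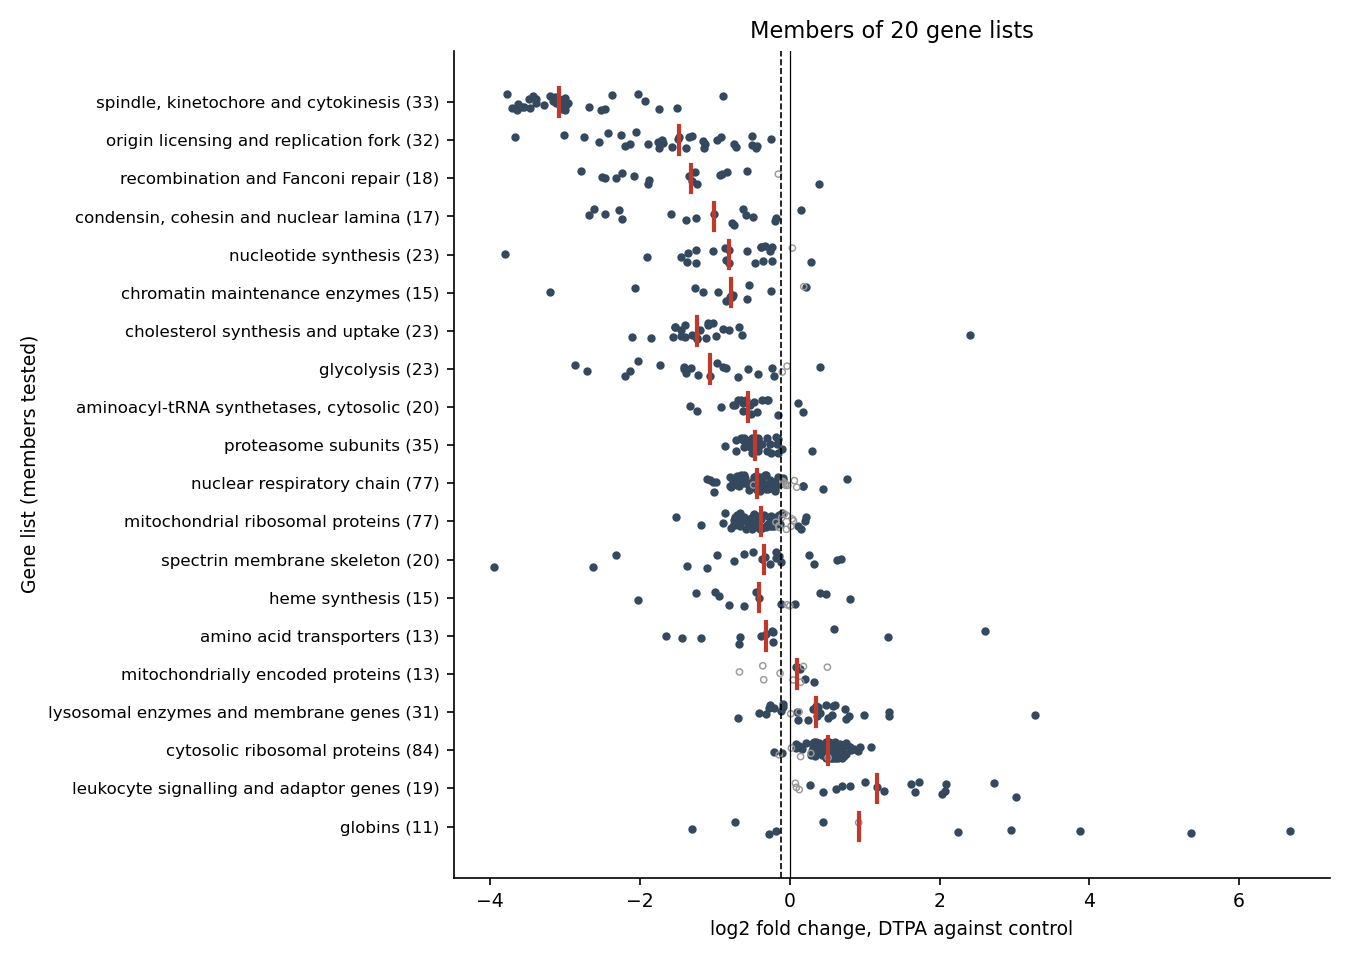
Log2 fold changes of DTPA against control for the tested members of 20 gene lists, filled where the adjusted p was under 0.05, with the list median in red and the median of all tested genes dashed. Spindle genes gather near -3, ribosomal protein genes near 0.5, and the globins spread from -1.30 to 6.68.

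The parts of the protein synthesis machinery separated. Of 84 tested cytosolic ribosomal protein genes 77 rose, with a median log2 fold change of 0.51, and 2 fell, Rpl7l1 and Rps27l, which are relatives of ribosomal proteins rather than standard subunits. After median-of-ratios scaling 79 rose, neither of these passed and the sign of Rps27l turned. Rps27l also missed the threshold, at -0.10 to -0.09 on the log2 scale, when control replicate 1 or 2 or DTPA replicate 1 or 2 was left out. Rps6 went from 1479, 1478 and 1519 TPM to 2783, 2880.3 and 2943 TPM (log2 fold change 0.94, adjusted p = 9.68e-12), and Rps12 rose by 0.91 on that scale. The summed level of the list moved from 84832 to 87239 TPM in control to 121025 to 126283 TPM with DTPA. Many of these genes have processed copies elsewhere in the genome. Rps10 was listed at 2.13 TPM in control, far under its fellow subunits, so levels of single members may be incomplete.

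Translation factors divided. Eef1b2 rose from 539, 542 and 533 TPM to 931, 924 and 962 TPM (adjusted p = 6.18e-11), Pabpc1 from 772 ± 16.3 to 1162 ± 24.8 TPM and Eif3e by 0.61 on the log2 scale. Eif4e, the cap-binding protein, fell from 70.2 to 43.1 TPM. Of 30 tested factors 10 rose and 16 fell as deposited, against 23.5% and 42.1% of all tested genes. After median-of-ratios scaling 13 rose and 13 fell, against 32.2% and 32.4%. Ribosome assembly factors showed no rise to match that of the subunits: 21 of 36 fell and 2 rose, Rrp12 and Polr1a, or 16 and 8 after scaling. Ftsj3 fell from 92.4 to 41.7 TPM and Dkc1, the pseudouridine synthase dyskerin, from 23.2 to 13.5 TPM. Cytosolic aminoacyl-tRNA synthetases, which charge tRNAs, fell in 18 of 20 cases, from Vars at -1.33 and Aars at -1.24 on the log2 scale to Nars at -0.15, which did not pass after scaling, and Kars and Qars rose by 0.11 and 0.18.

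Amino acid carriers were mostly lower, with 3 exceptions. Slc43a2, a transporter for large neutral amino acids, rose from 14.8, 15.3 and 15.3 TPM to 97.0, 102 and 92.3 TPM (log2 fold change 2.60, adjusted p = 1.09e-12). Slc7a6 rose from 24.8 to 63.1 TPM and Slc38a9, a lysosomal arginine sensor, from 9.72 to 15.1 TPM. The remaining 10 of 13 tested members fell. The glutamine carriers Slc1a5 and Slc38a5 fell from 32.9 to 9.81 TPM and from 415 to 152 TPM, and the arginine carrier Slc7a1 from 15.4 to 6.18 TPM.

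Nuclear genes of energy metabolism were mostly lower. Of 23 tested genes of glycolysis 20 fell, 12 of them at least 2-fold, with a median of -1.07. Ldha, lactate dehydrogenase, went from 881, 1162 and 999.9 TPM to 153, 149.9 and 157 TPM, and Pdk1, which restrains pyruvate entry into mitochondria, from 22.6 to 2.22 TPM. Pfkl, the liver-type phosphofructokinase, fell from 69.9 to 14.4 TPM while Pfkm, the muscle type, rose from 543, 541 and 541 TPM to 712, 733 and 698 TPM, the 1 rise in the list. The controls of Ldha were uneven, as were those of Bnip3 (221, 284 and 254 TPM), a mitophagy gene that fell to 43.5 ± 2.27 TPM. In both genes the same control library was highest, and the DTPA libraries lay clear of all 3.

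Nuclear genes of oxidative phosphorylation mostly fell, and mitochondrially encoded ones mostly did not pass as deposited. Of 77 nuclear respiratory chain genes 65 fell and 4 rose, with a median of -0.44, and of 77 tested mitochondrial ribosomal protein genes 63 fell and 4 rose, with a median of -0.39. After median-of-ratios scaling the falls numbered 57 and 48. Among the respiratory genes that rose were Cox7a2l, which helps assemble supercomplexes, Atp5e and Cox8a, by 0.77, 0.44 and 0.17 on the log2 scale. The ribosomal ones were Mrpl52, Mrpl34, Mrpl43 and Mrpl24, all by 0.22 or less. Atp5e missed the threshold, at 0.34 to 0.39, without control replicate 2 or DTPA replicate 2 or 3, Mrpl52 (0.17 and 0.16) without replicate 1 of either group, and Mrpl43 (0.12 in both cases) without control replicate 1 or DTPA replicate 3. Ndufb8 and Ndufa5 of complex I fell with log2 fold changes of -1.11 and -1.07, and Atp5b, the catalytic subunit of ATP synthase, from 1017 ± 4.25 to 582 ± 4.07 TPM. Mrps18c fell from 74.3 to 25.2 TPM, the deepest of its list. Of the 13 genes of the mitochondrial genome none passed as lower and 5 rose slightly (9 after scaling). These counts were less firm: 3 rose without control replicate 2, without DTPA replicate 3 or with no filter, and 1 member was called lower without control replicate 2 or 3 or with a replicate block. The transcript mt-Co1, which encodes the catalytic subunit of cytochrome oxidase, went from 17622, 17228 and 17897 TPM to 21753, 22029 and 21919 TPM (log2 fold change 0.32, adjusted p = 1.48e-08). The genes mt-Co2 and mt-Co3 were listed at 35.1 and 17.5 TPM in control, far below mt-Co1, and their levels may be incomplete. In the TCA cycle and pyruvate dehydrogenase 13 of 19 fell and Sucla2 rose, with Dlat and Pdhb of pyruvate dehydrogenase at log2 fold changes of -0.82 and -0.75.

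Lipid synthesis genes were mostly lower. Of 23 tested cholesterol genes 22 fell, with a median of -1.25. Fdps, farnesyl diphosphate synthase, fell from 27.4 to 5.61 TPM and Hmgcs1 from 477, 459 and 469.9 TPM to 158, 166 and 159.6 TPM. The exception was Abca1, which exports cholesterol and is turned on when sterols are ample, at 2.97, 2.50 and 2.54 TPM in control and 18.1, 18.8 and 18.0 TPM with DTPA (log2 fold change 2.40, adjusted p = 6.91e-11). Among 18 tested genes of fatty acid synthesis and its SREBP regulators 14 fell and 3 rose. The desaturases Fads2 and Fads1 fell from 370 to 82.7 TPM and from 211 to 72.0 TPM, and Srebf1 and Srebf2, which encode the SREBP factors, fell with log2 fold changes of -0.47 and -0.49. Acss2, which makes acetyl-CoA from acetate, rose from 29.8 to 72.5 TPM, and Scap and Mbtps1, which process SREBP proteins, by 0.13 and 0.27 on the log2 scale. Scap passed only narrowly and missed the threshold, at 0.10 to 0.14, when control replicate 1 or 2 or DTPA replicate 1 or 2 was left out.

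The proteasome and the lysosome, the main routes of protein breakdown, moved apart. Of 35 tested proteasome subunits 34 fell, by small steps (median -0.46), and 29 still passed after median-of-ratios scaling. Psmd9 fell from 63.6 to 34.6 TPM and Psmc4 and Psmc5, ATPases of the proteasome base, both had log2 fold changes of -0.72. Psmb10, an immunoproteasome subunit, rose from 13.0 to 16.2 TPM. Lysosomal genes rose in 20 of 31 cases and fell in 9, with a median of 0.34. Lgmn, the protease legumain, went from 74.4 ± 0.175 to 188 ± 2.91 TPM and Man2b1, a mannosidase, from 28.9 ± 0.498 to 74.3 ± 0.592 TPM. Cathepsins D and Z (Ctsd, Ctsz) rose by 0.79 and 0.74 on the log2 scale and Gusb by 0.99.

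Chaperone and antioxidant genes were mostly lower. Of 25 tested cytosolic chaperone genes 18 fell and 4 rose, the deepest being Stip1, from 289 to 127 TPM, and Hsph1, from 61.5 to 30.1 TPM. Hspa8 and Cct2 rose by 0.08 and 0.24 on the log2 scale, Hsf2 and Ahsa1 by 0.19 and 0.28. Without control replicate 2 or DTPA replicate 2, Hspa8 (0.05 and 0.07) and Hsf2 (0.15 in both cases) missed the threshold. Of 26 tested genes of the glutathione, thioredoxin and peroxiredoxin systems 19 fell and 4 rose. Txnrd1, the selenoenzyme thioredoxin reductase, fell by 1.32 on the log2 scale and Gpx1, the main glutathione peroxidase of red cells, from 3895 ± 46.0 to 2246 ± 39.9 TPM. Prdx6 rose from 793, 796 and 791 TPM to 1219, 1201 and 1212 TPM, and the other risers were Prdx3, Gss and Srxn1. Gss rose by 0.18 on the log2 scale and missed the threshold, at 0.15 to 0.17, without control replicate 2 or 3 or DTPA replicate 1 or 3.

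Proteins that themselves hold zinc showed no common shift at the transcript level. Of 19 tested zinc enzymes 4 rose and 9 fell as deposited, near the 23.5% and 42.1% of all tested genes. After median-of-ratios scaling 9 rose and 8 fell, against 32.2% and 32.4%. The carbonic anhydrases moved most, and in opposite ways. Car1 went from 66.6, 72.1 and 66.4 TPM to 534, 544 and 562 TPM (log2 fold change 2.98, adjusted p = 1.36e-13), and Car2, the abundant red cell form, from 4981, 4944 and 5098 TPM to 3120.3, 3017 and 3155 TPM (log2 fold change -0.69, adjusted p = 1.13e-10). These genes are neighbours on chromosome 3: Car13 (chr3:14641727-14663002) fell from 23.2 to 8.24 TPM, Car1 (chr3:14766216-14808368) rose, Car3 (chr3:14863512-14872523) rose from 0.749 to 1.91 TPM, and Car2 (chr3:14886273-14900770) fell. The control mean of Car3 lay below the filter of 1 TPM, so no pattern by position is drawn. Sod1, which holds zinc and copper, did not pass as deposited (log2 fold change -0.04) and passed as higher after scaling.

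Among the zinc-dependent histone deacetylases Hdac7 and Hdac11 rose, from 13.3 to 24.0 TPM and from 1.29 to 2.64 TPM, as did Hdac5 by 0.26 on the log2 scale. Hdac4 and Hdac1 fell with log2 fold changes of -0.73 and -0.40, and Hdac2 and Hdac3 with -0.22 and -0.23, the last pair not passing after median-of-ratios scaling. Of 276 tested zinc finger genes named Zfp, 87 rose and 90 fell, or 119 and 66 after scaling, and their median was -0.032. The shares over all tested genes were 23.5% and 42.1%, or 32.2% and 32.4% after scaling. Zfp36, which destabilises messages with AU-rich elements, rose from 147 to 351 TPM, and Zfp213 fell by 1.24 on the log2 scale. Of 12 tested copper handling genes 4 rose and 8 fell, or 4 and 4 after scaling, against the same shares. The exporter Atp7b went down from 23.3 to 12.3 TPM and the importer Slc31a1 from 424 to 318 TPM.

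Erythroid maturation did not move as a unit. Gata1 transcripts, which include those of the introduced fusion where its reads map to the gene, fell from 2535, 2422 and 2546 TPM to 1047, 1087 and 1039 TPM (log2 fold change -1.24, adjusted p = 5.60e-12). Transcripts of the disrupted gene and of the fusion were not told apart, so which of them fell was not tested. Gfi1b, a repressor that is a GATA1 target, moved the other way, from 278, 274 and 274 TPM to 722, 774 and 750.0 TPM. Of the other partners of GATA1, Tal1 fell from 238 to 136 TPM, Ldb1 rose from 88.5 to 144 TPM, and Zfpm1 (FOG1) and Klf1 did not pass, at 825 and 807 TPM and at 661 and 689 TPM in control and DTPA. After median-of-ratios scaling Klf1 passed as higher, and Zfpm1 turned to the higher side, passing only under trimmed-mean scaling. In the list of 18 tested erythroid factors 6 rose and 7 fell, against 23.5% and 42.1% of all tested genes. After median-of-ratios scaling 10 rose and 5 fell, against 32.2% and 32.4%.

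Membrane skeleton genes fell in 16 of 20 cases, or 13 after scaling, but to very different depths. Tmod1, tropomodulin 1, fell from 11.1 to 0.953 TPM and Dmtn, dematin, from 53.3 to 9.92 TPM, whereas the beta spectrin gene Sptb had a log2 fold change of -0.19. Add2, Tpm1, Actb and Cd47 rose, Add2 from 181 to 292 TPM. Of the late erythroid ubiquitin and remodeling genes Ube2o, which clears ribosomes from maturing red cells, rose from 97.4, 94.4 and 96.5 TPM to 202, 197 and 191 TPM, and Mkrn1 from 152 to 298 TPM. The largest change was in Ube2c, a ubiquitin enzyme of mitotic exit, which went from 246, 241 and 241 TPM to 19.8, 18.2 and 18.7 TPM, and Trim10 fell from 191 to 75.8 TPM. The list split 7 higher and 8 lower of 17 tested, against 23.5% and 42.1% of all tested genes. After scaling the split was 9 and 4, against 32.2% and 32.4%.

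Genes of erythropoietin receptor signalling were higher and lower in shares near those of all tested genes (23.5% and 42.1%), with 6 of 18 higher and 9 lower. Epor, the receptor, fell from 153 to 79.5 TPM. Erfe, the hormone erythroferrone and a STAT5 target, fell from 20.4 ± 3.07 to 1.72 ± 0.455 TPM (adjusted p = 1.24e-09), and the targets Socs3, Cish and Id1 had log2 fold changes of -1.26, -0.41 and -0.41. Stat5a rose by 0.87 on that scale and Socs1 from 1.40 to 3.74 TPM, and Pim1, another target, rose by 0.15 on the log2 scale. In the BCL2 family 5 of 12 tested members rose and 6 fell. The largest change was the fall of Bnip3, a mitophagy gene also counted as pro-apoptotic, by 2.51 on the log2 scale. The pro-apoptotic genes Bbc3 and Bax rose from 96.3 to 194 TPM and from 408 to 559 TPM, while the protective genes Mcl1 and Bcl2l1 fell with log2 fold changes of -0.43 and -0.29 and Bak1, a death effector, fell from 113 to 68.3 TPM.

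Among the globins the adult genes moved less than the embryonic ones, and since adult copies are nearly identical their reads may be shared between them. Hbb-bs, an adult beta gene, rose from 19234 ± 1307 to 26214 ± 1077 TPM (adjusted p = 2.90e-05), and Hba-a1 stood at 11589 ± 563 and 10152 ± 413 TPM, a fall that did not pass after median-of-ratios scaling. Hbb-bt was too variable to call, at 2684 ± 587 and 6002 ± 4561 TPM (adjusted p = 0.163). Of known silencers of embryonic globin genes, Bcl11a fell from 6.22 to 3.10 TPM and Nfix, near the 1 TPM filter in control, from 1.16 to 0.112 TPM, whereas Zbtb7a rose from 36.1 to 42.8 TPM. Of 16 tested regulators of the embryonic globin switch 5 rose and 6 fell, against 23.5% and 42.1% of all tested genes. After median-of-ratios scaling 8 rose and 6 fell, against 32.2% and 32.4%.

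Genes shared with leukocytes rose. Of 34 listed signalling and adaptor genes of white cells 19 passed the filter, and of these 16 rose, 11 at least 2-fold, and none fell, against backgrounds of 23.5% and 3.38%. A filter passed only through the DTPA group would favour rises, so these counts describe and do not test the list. Vav1, an exchange factor for small GTPases downstream of blood cell receptors, went from 18.1, 15.2 and 18.3 TPM to 145, 149.8 and 145 TPM (log2 fold change 3.02, adjusted p = 9.23e-12). Inpp5d, the lipid phosphatase SHIP1, went from 68.2, 67.8 and 67.7 TPM to 276, 287 and 276 TPM, and Arhgdib, an inhibitor of small GTPases, from 1242 ± 7.30 to 3940.1 ± 61.5 TPM. Itgb2, an integrin chain of leukocytes, rose from 12.2 ± 1.22 to 54.5 ± 2.07 TPM. The receptor phosphatase Ptprc (CD45) and the kinase Syk were listed at 0 in every library.

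Factors of progenitors and other lineages, several of which GATA1 normally shuts off, rose in 7 and fell in 4 of 12 tested cases, against 23.5% and 42.1% of all tested genes. Kit rose from 5.83 to 26.7 TPM, Spi1, which encodes PU.1, from 7.00 to 23.1 TPM, Fli1 from 21.3 to 43.6 TPM and Gata2 from 26.6 to 42.6 TPM. Runx1 fell from 46.8 to 33.9 TPM, and Etv6, Ikzf1 and Lmo4 had log2 fold changes of -0.40, -0.30 and -0.24, the last not passing after median-of-ratios scaling. Of 18 listed megakaryocyte markers 6 were tested and 5 rose, against 23.5% of all tested genes. Log2 fold changes were 2.51 for Itgb3 and 1.87 for Gp1ba. A filter passed only through the DTPA group would favour rises here too, so this count describes and does not test the list. The summed level of the megakaryocyte list went from 161 to 172 TPM in control to 258 to 269.8 TPM with DTPA. The mast and myeloid list summed to 2.76 to 3.52 TPM in control and 6.58 to 8.26 TPM with DTPA, the lymphoid list to 0.380 to 0.757 and 1.37 to 2.04 TPM, and the white cell signalling list to 2539 to 2555 and 5926 to 6106 TPM. Of the listed markers 6 of 18 platelet, 11 of 22 myeloid and 11 of 17 lymphoid ones were at 0 in all 12 libraries. The same held for 1 of 14 erythroid identity markers. The part of other cell types in these rises was not tested.

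Cytoskeletal and immediate early genes shifted by isotype. The neuronal-type tubulins Tubb3 and Tubb2b rose by 2.41 and 2.25 on the log2 scale, while the common isotypes Tuba1b and Tubb5 fell from 246 ± 6.31 to 80.2 ± 1.13 TPM and from 638 to 299 TPM. Egr1 rose from 7.18 ± 0.705 to 27.8 ± 2.41 TPM, Jun from 10.9 ± 0.770 to 39.6 ± 2.11 TPM and Jund from 57.3 to 137 TPM, whereas Junb fell from 104 to 72.6 TPM. Of 12 tested immediate early and MAPK feedback genes 7 rose and 3 fell, against 23.5% and 42.1% of all tested genes. Interferon-stimulated genes, measured as a further stress readout, rose in 1 and fell in 3 of 11 cases, or 3 and 3 after median-of-ratios scaling.

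The medians of several lists are set side by side for the contrasts of DTPA with each other group. Against control, DFO and SA the spindle list had median log2 differences of -3.08, -2.84 and -3.02, and all 33 members were called lower in each contrast. Cytosolic ribosomal protein genes were higher by medians of 0.51, 0.34 and 0.28. Cholesterol genes had medians of -1.25, -1.17 and -0.90, and amino acid carriers of -0.32, -0.50 and -0.72. White cell signalling genes were higher by 1.17, 1.27 and 1.2, lysosomal genes by 0.34, 0.14 and 0.17 and globins by 0.92, 1.94 and 1.85. The erythroid identity markers had medians of differing sign, -0.26, -0.41 and 0.05. These contrasts share the DTPA libraries, so they are given side by side and not as separate evidence.

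**Figure D5:**
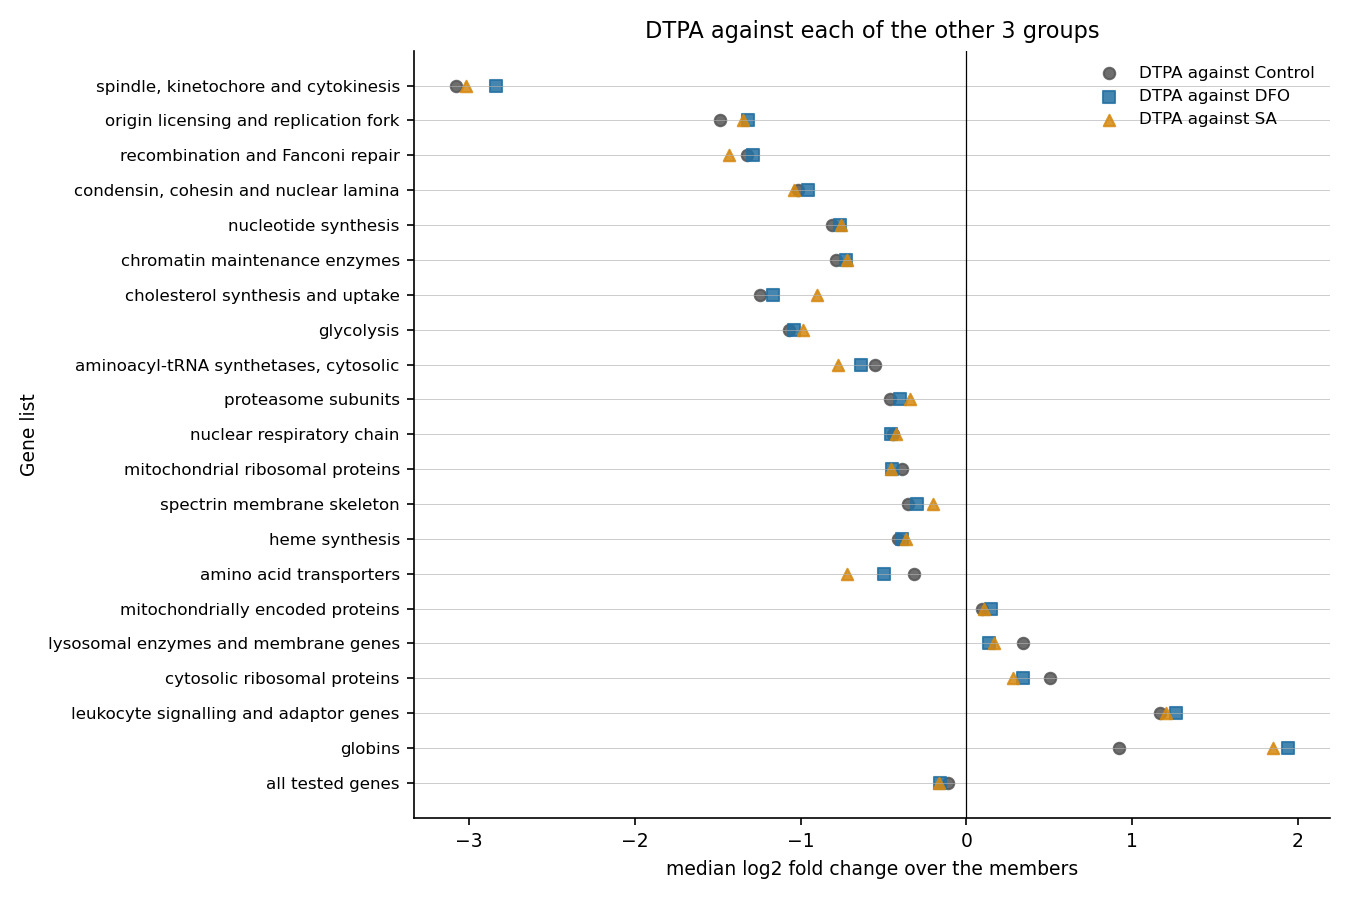
Median log2 fold change over the tested members of 20 gene lists and over all tested genes for DTPA against control (grey circles), DFO (blue squares) and SA (orange triangles). Spindle genes lie near -3 in each contrast, and all tested genes lie between -0.17 and -0.11.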

How the data were processed

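Polyadenylated RNA of 12 cultures was sequenced, and the titles gave each sample's group and number. The authors deposited TPM values for 55487 gene symbols per library, and per the submitters' processing notes the build was mm10 and the tools included HISAT2 2.1.0 for alignment, featureCounts, edgeR and, for trimming, Trimmomatic 0.33, with settings not given in the sources used here. Symbols that occur more than once (114) kept separate rows. Values were fitted as log2(TPM + 1) over all 12 libraries with limma 3.58.1 in R 4.3.3 (1 mean per group, mean-variance trend), with Benjamini-Hochberg adjustment over 11920 genes and a threshold of 0.05. Multiples are ratios of mean TPM. Read totals were recovered from whole multiples of the lowest step, with 98.7% to 98.9% of values whole within 0.1 read. Replicates differed beyond sampling noise and none were identical. The fit was tested on simulated data. Gene positions came from GENCODE M21 and promoters from RefSeq, both on GRCm38.

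The genes named were 6 of zinc and heme handling and the 20 largest rises and falls with separate groups and at least 5 TPM. Predicted gene models, clone names and symbols with a pseudogene suffix were left out of these rises and falls. Any member of lists with up to 20 tested members could also be named, as could the 6 most changed members of longer lists. Members of longer lists that moved against their list, Cdk1, Incenp, Rps10, Bnip3 and genes listed at 0 were named after their values were seen. Members and lists were chosen with earlier results of these data known. The histone list under current symbols was added after the data were seen. Some genes that the rule would name are not reported here.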

Additional observations from a re-analysis of the deposited data

How the results depend on the processing

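Requiring an absolute log2 fold change of 1 as well left 1137 genes called between DTPA and control. Pseudocounts of 0.1 and 5 TPM, a 5 TPM filter or none at all, trimmed-mean or median-of-ratios scaling, a fit of the 2 groups alone and limma's voom on recovered reads, chosen after seeing the data, gave between 7044 and 8007 called genes. The number of genes tested differed between some of these settings. Called shares were 76% of 9263 genes under the 5 TPM filter and 38.1% of 20946 genes with no filter. Under voom the share was 70.1% of 11426 genes. Leaving out each library in turn gave 7416 to 7495 called, 2589 to 2703 higher and 4727 to 4881 lower, 7439 to 7528 against DFO and 7609 to 7642 against SA. Higher and lower genes numbered 3891 and 3819 under trimmed-mean scaling, and 3538 and 4469 under voom. With the replicate number as a block (replicate block) 7747 genes were called, 2775 higher and 4972 lower. Libraries with the same number did not deviate together (correlations of -0.043 to 0.053), so the numbers were not taken as pairs.
Rps27l moved from -0.11 to 0.024 and 0.0294 on the log2 scale and Sod1 from -0.04 to 0.0944 and 0.0998 under median-of-ratios and trimmed-mean scaling, and Zfpm1 from -0.03 to 0.106 under the latter; these scalings centre the genes elsewhere. Of 233 named genes, 15 lost their call under some alternative.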
